A study of Mus musculus with 4 samples.

Results

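The genes *Col4a3*, *Col4a4*, *Col4a5*, *Col4a6*, *Col15a1* and *Col18a1* encode basement membrane collagens other than the chains made from *Col4a1* and *Col4a2*. They were chosen by name, with earlier results of these data known, and are 6 of the 21887 protein-coding genes in the annotation. Each was described by the H3K27ac peaks that fell in its body, within 10 kb of it, and within 1 kb of either of its ends. *Col4a1* and *Col4a2* were measured in the same way for comparison.

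Basement membranes are thin sheets of matrix in which networks of collagen IV and laminin are tied together by nidogens and perlecan. The chains of *Col4a1* and *Col4a2* form the collagen IV network found in nearly all basement membranes, those of *Col4a3*, *Col4a4* and *Col4a5* form a network best known from the kidney glomerulus, and those of *Col4a5* and *Col4a6* form another, found among other places around smooth muscle. *Col15a1* and *Col18a1* encode collagens XV and XVIII, which carry long sugar chains and lie at the border between basement membrane and surrounding matrix, and whose C-terminal ends can be released as restin and endostatin. Liver sinusoidal endothelial cells (LSECs) line the capillaries of the liver, which lack a continuous basement membrane. H3K27ac, an acetylated lysine of histone H3, marks active promoters and enhancers, but a peak does not name the gene it acts on and is not a measure of RNA.

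The study asked, among other questions, how *Col4a1* and *Col4a2* are controlled in LSECs, and profiled H3K27ac by ChIP-seq in mouse LSECs. Peaks of 2 H3K27ac libraries, numbered replicates 2 and 3, were used; the 2 input libraries were not analysed here. The labels give the cells as LSECs and give no genotype, treatment, sex or age for these libraries, and nothing says whether the replicates came from separate animals. In the study's general protocol LSECs were released from the liver by perfusion with proteases and selected with beads against CD146. That protocol then cultured them briefly on collagen I, a step that the study's ChIP-seq method does not mention. CD146 is also found on other endothelial cells. There is 1 condition, so no comparison between conditions and no test were possible, and all values are given per library.

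Replicate 2 held 26975 peaks and replicate 3 held 64498, with median widths of 322 and 345 bp. Of these, 99.2% of replicate 2 peaks but 37.7% of replicate 3 peaks overlapped a peak of the other library. The replicate 2 list was thus close to a subset of the longer list, and values for both libraries stay close to those of replicate 2 alone. A peak is called shared below where both libraries had it, by an overlap of at least 1 bp. Fold enrichment, the height of a peak over its local background, had a median of 27.03 in the replicate 3 peaks that were shared and 6.20 in those that were not. Read depth is unknown, and the part that depth played in the difference between the lists was not tested. Shared peaks lay within 1 kb of an end of 8 of 13 LSEC markers, and 4 more had one in replicate 3 alone. Of 32 markers of hepatocytes, stellate cells, Kupffer cells, cholangiocytes and lymphocytes together, 2 had a shared peak at an end and 4 more had one in replicate 3 alone. The 2 were *Trf* and *Cd79a*, whose bodies were at 0% covered in both libraries. Of the 32 bodies, only those of *Hnf4a* (0.227%), *Pdgfra* (0.934%) and *Csf1r* (1.71%) were partly covered in both. The median over the LSEC markers was 2.36%. Of 5 markers of capillary or arterial endothelium, 2 had shared peaks at an end and 3 in replicate 3 alone. Over all protein-coding genes 43.4% had a shared peak there and 53.9% had one in replicate 3.

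The 6 genes held few H3K27ac peaks. In the whole of their bodies and 10 kb flanks, which together span 1097.34 kb, replicate 2 had 2 peaks and replicate 3 had 15, and they met in 2 shared regions. One of these lay in *Col15a1* and the other lay at the start of a neighbouring gene, *Mff*, inside the flank of *Col4a3*. *Col4a4*, *Col4a5*, *Col4a6* and *Col18a1* had no region of both libraries in body or flank, so that 2 of 6 genes had one, against 69.0% of the 4945 protein-coding genes with bodies of at least 50 kb. The windows of *Col4a1* and *Col4a2*, together 270.865 kb, held 15 replicate 2 peaks, 46 replicate 3 peaks and 15 shared regions. That count includes a shared region (chr8:11452384-11453072) in the flank of *Col4a2*, within 1 kb of an end of the neighbouring gene *Rab20*. Several replicate 3 peaks of the same flank lay inside *Rab20*.

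None of the 6 genes had a shared peak within 1 kb of either end, a position that 43.4% of all protein-coding genes held. *Col4a1* and *Col4a2* had none there either, although replicate 3 had a peak at an end of both. In replicate 3 alone, 1 of the 6 had a peak there, against 53.9% of all genes. That peak belonged to *Col15a1* and lay 0.868 kb past its 3′ end at chr4:47314035-47314273 (mm10), with a fold enrichment of 4.30. All positions below are on the mm10 build, which is GRCm38, and exons and introns were not analysed here.

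**Figure D1:**
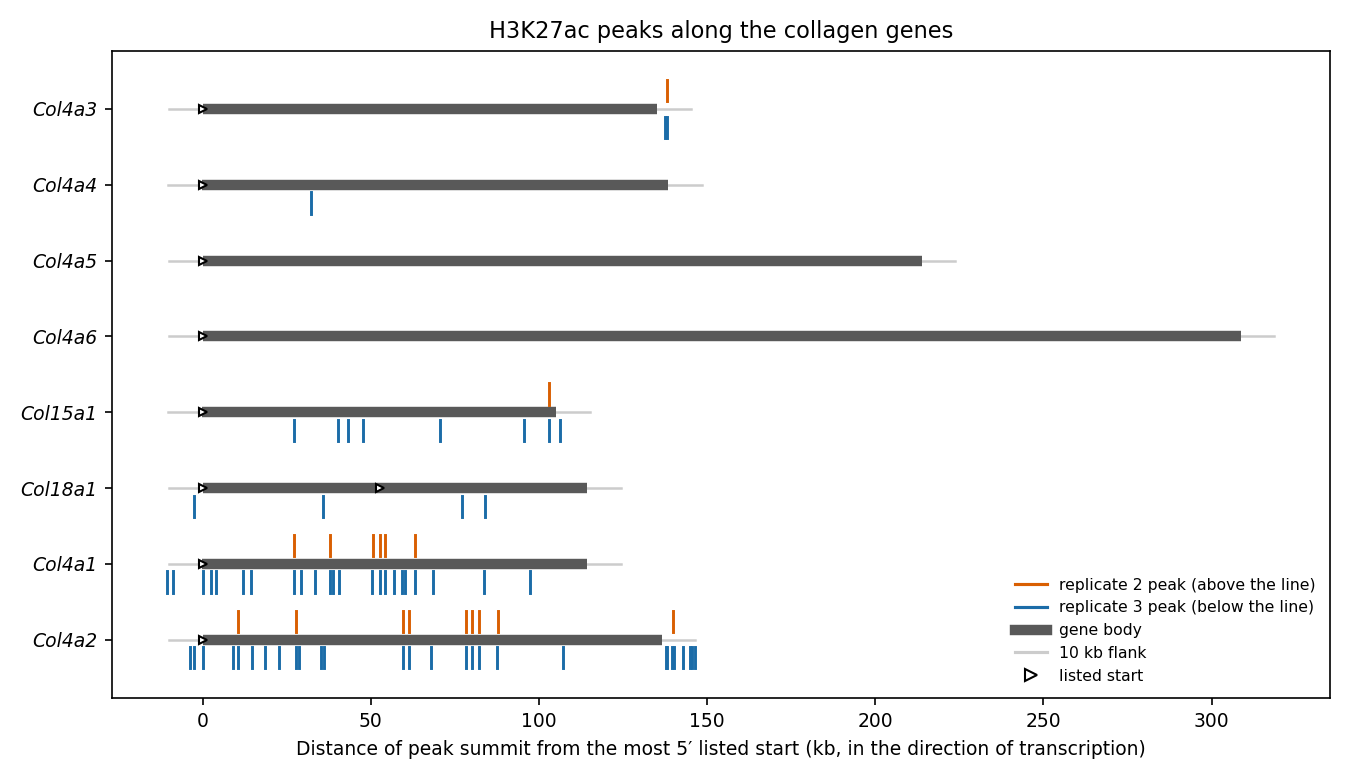
Peak summits of replicate 2 (above each line) and replicate 3 (below) along the 6 genes and *Col4a1* and *Col4a2*, in kb from the most 5′ start in the direction of transcription. Thick bars are gene bodies, thin bars the 10 kb flanks and triangles the listed starts (the gene table's start for *Col4a3*); *Col4a5* and *Col4a6* carry no mark, while *Col4a1* and *Col4a2* carry 6 and 8 replicate 2 peaks in their bodies.

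*Col4a3* and *Col4a4* lie head to head on chromosome 1 and encode chains that assemble with that of *Col4a5*. The body of *Col4a3* (chr1:82586921-82722059, 135.139 kb) held 0 peaks in replicate 2 and 0 in replicate 3. The peaks in its window, 1 in replicate 2 and 2 in replicate 3, all lay past its 3′ end, where *Mff*, which encodes a factor of mitochondrial fission, begins. The shared region there reached a fold enrichment of 11.9 in replicate 2 (chr1:82724793-82725179) and 49.5 in replicate 3 (chr1:82724603-82725392), with summits 0.003 and 0.022 kb from the listed start of *Mff* and the nearer edge 2.54 kb from *Col4a3*. It also overlapped the noncoding gene *C430014B12Rik*. The weaker replicate 3 peak beside it (chr1:82724328-82724547) had a fold enrichment of 4.88.

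The body of *Col4a4* (chr1:82448419-82587034, 138.616 kb) held 0 peaks in replicate 2 and 1 in replicate 3. That peak (chr1:82554416-82554766) was 351 bp wide, lay 32.3 kb downstream of the start of *Col4a4* and had a fold enrichment of 5.54, above 24.0% of the replicate 3 list. Among the 8377 replicate 3 peaks within 10% of that fold enrichment, 3.53% had a replicate 2 peak (95% Wilson interval 3.16 to 3.95%, counting error only). The peak covered 0.253% of the gene body, where the median over the 4945 long genes in replicate 3 was 1.07%. From the starts of *Col4a3* and *Col4a4* the nearest replicate 3 peak was 32.2 and 32.1 kb away, which is this same peak, and the nearest replicate 2 peak was 138 kb away from both, which is the one at *Mff*.

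*Col4a5* and *Col4a6* lie head to head on chromosome X. *Col4a5*, whose chain takes part in both of the restricted networks, spans 213.867 kb (chrX:141475370-141689236). *Col4a6*, whose chain pairs with that of *Col4a5*, spans 308.693 kb (chrX:141165403-141474095). Neither gene held a peak of either library in its body or within 10 kb, and both bodies were at 0% covered in each library. From their starts the nearest peak of either library was 518 kb away for *Col4a5* and 517 kb away for *Col4a6*.

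An empty long gene was not rare in these lists. In replicate 3, 21.7% of the 4945 gene bodies of at least 50 kb had no peak, as did 29.7% of the 990 of at least 200 kb and 33.8% of the 216 of at least 50 kb on chromosome X. Shared peaks at a gene end were also fewer on that chromosome, at 26.7% of 966 genes. The stretch without peaks around *Col4a6* and *Col4a5* was measured because both genes were empty, so it could not be shorter than the 523.834 kb they span. It ran for 1271 kb in replicate 2, where 30 of the 570 gaps between peaks on chromosome X, itself included, were at least as long and the median gap was 41.7 kb. In replicate 3 it ran for 1243 kb, and 27 of 1273 gaps were at least as long with a median of 14.1 kb. These are counts of gaps and not of bases, so they do not give the share of the chromosome in such gaps.

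*Col15a1* was the only one of the 6 genes with a shared peak in its body (chr4:47207655-47313167, 105.513 kb). Replicate 2 had 1 peak in the body and replicate 3 had 7. The shared peak was 273 bp wide in replicate 2 (chr4:47310863-47311135) with a fold enrichment of 12.8 and a −log10 q of 20.2. In replicate 3 it was 503 bp wide (chr4:47310748-47311250) with a fold enrichment of 22.5 and a −log10 q of 114. These fold enrichments exceeded those of 64.0% of replicate 2 peaks and 77.5% of replicate 3 peaks. The replicate 2 peak lay wholly inside the replicate 3 peak, with both summits 103 kb downstream of the listed start and the outer edge 1.92 kb short of the 3′ end. The nearest listed start was that of the noncoding gene *Gm52732*, 7.83 kb from the replicate 3 summit.

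The other 6 replicate 3 peaks in the body of *Col15a1* had no replicate 2 peak and fold enrichments from 3.41 to 11.7. The strongest of them (chr4:47278457-47278746) lay 0.55 kb from the listed start of the noncoding gene *Gm52734* inside *Col15a1*, and 33.1% of the 4334 replicate 3 peaks of similar height had a replicate 2 peak. The weakest lay 0.324 kb from the listed start of *Gm52732*. Peaks of 3.58 and 7.81 lay at the ends of another noncoding gene, *Gm52733*, and 1 of 4.76 lay in *Gm32317*. The remaining peak, of 6.21, lay within 1 kb of no gene's end. Assignment of these peaks to *Col15a1* rather than to the noncoding genes cannot be made from position alone. Some shared peaks in the bodies of *Col4a1* and *Col4a2* likewise overlapped other annotated genes, *Gm32709* and *Gm46030*, and the same limit holds for them.

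*Col18a1* (chr10:77052178-77166530, 114.353 kb) has a pair of listed starts, the first of which is at the 5′ end of its annotated span and the second inside it. Its body held 0 peaks in replicate 2 and 3 in replicate 3, and a further replicate 3 peak lay in its flank. The strongest (chr10:77130554-77130990) was 437 bp wide with a fold enrichment of 14.7, above 67.1% of replicate 3 peaks. It lay between the starts, 35.8 kb downstream of the first and 17.0 kb upstream of the second. Of the 3595 replicate 3 peaks within 10% of its fold enrichment, 52.4% (50.8 to 54.0%) had a replicate 2 peak. The other body peaks had fold enrichments of 6.61 and 5.85 and lay downstream of the second start. The flank peak (chr10:77169019-77169293), of 7.16, had its edge 2.49 kb upstream of the first start. Within the body and 10 kb flanks, *Col18a1* thus differed from *Col4a5* and *Col4a6*, which were empty, only through replicate 3.

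Of the 15 replicate 3 peaks in the 6 windows, 13 had no replicate 2 peak, with fold enrichments from 3.41 to 14.7 and a median of 5.85. Over all 42715 replicate 3 peaks in that range, 12.5% (95% Wilson interval 12.1 to 12.8%) had a replicate 2 peak. Sharing rose with height over the whole list, from 2.06% in the lowest decile of fold enrichment to 80% in decile 8 and 100% in the highest. The 2 shared peaks, at 22.5 and 49.5, stood in ranges where 87.1% and 100% of replicate 3 peaks were shared. Of the 13 peaks without one, the 14.7 peak of *Col18a1* stood where 52.4% were shared and all others stood where 1.79 to 33.1% were.

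**Figure D2:**
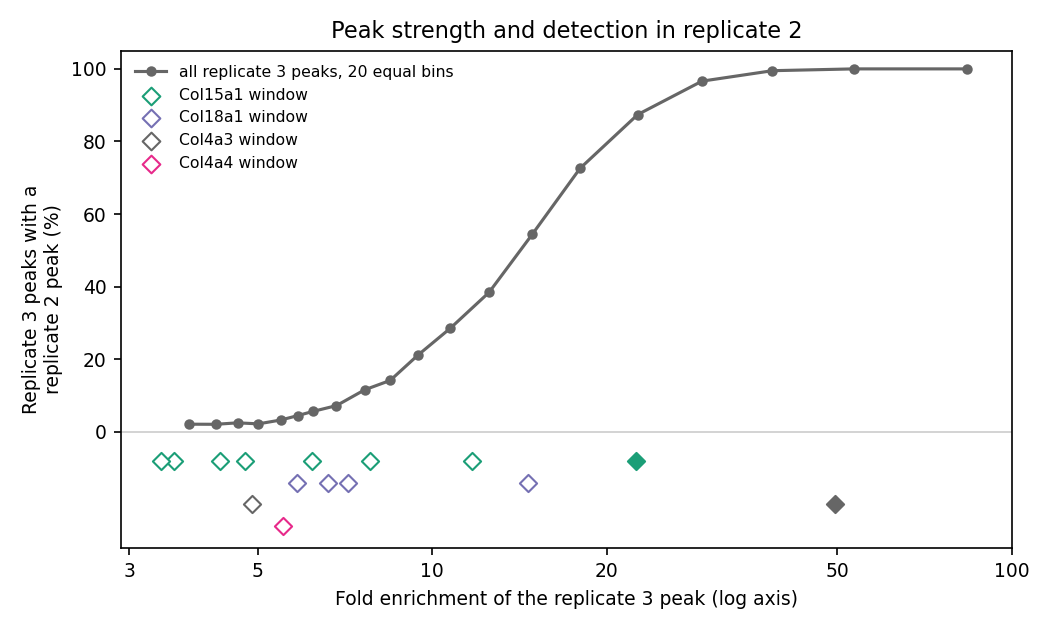
Share of replicate 3 peaks that overlap a replicate 2 peak (vertical axis, %) against their fold enrichment (log axis), over the whole replicate 3 list. Diamonds under the zero line mark the fold enrichments of the peaks in the windows of the 6 genes, filled where a replicate 2 peak overlaps; the 2 filled diamonds, at 22.5 and 49.5, are the highest.

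In covered length the 6 genes fell below *Col4a1* and *Col4a2* in each library. Bodies of the 6 genes were covered over 0 to 0.259% of their length in replicate 2 and 0 to 1.74% in replicate 3. *Col4a1* was covered over 1.81% in replicate 2 and 8.83% in replicate 3, and *Col4a2* over 1.80 and 6.65%. The ranges did not overlap within a library. The highest value among the 6 genes, of *Col15a1* in replicate 3, was below the replicate 2 values of both comparison genes. Most long genes lay below that pair as well. Among the 4945 bodies of at least 50 kb, *Col4a1* and *Col4a2* stood at percentiles 92.1 and 92.0 in replicate 2. In replicate 3 they stood at 97.2 and 94.2. With lengths pooled, 0.0269% of the 1016.18 kb of the 6 bodies and 1.81% of the 250.95 kb of *Col4a1* and *Col4a2* was covered in both libraries, a 67.3-fold difference that rests on the single shared peak of *Col15a1*. In replicate 3 alone the pooled shares were 0.302 and 7.64%, a 25.3-fold difference. Peaks that overlapped another annotated gene inside a body were counted for both sets of genes. Base pairs and peaks are not replicates, and with 2 libraries no p-value is given.

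*Col4a3* to *Col4a6*, 796.315 kb together, were at 0% in replicate 2 and 0.0441% in replicate 3, all of it the 1 peak in *Col4a4*. *Col15a1* and *Col18a1*, 219.866 kb together, were at 0.124 and 1.24%. The replicate 2 share came wholly from the 1 shared peak of *Col15a1*, and *Col18a1* was at 0 there, as the 4 collagen IV genes were. Pooled, *Col15a1* and *Col18a1* were 14.6-fold below *Col4a1* and *Col4a2* by bases covered in both libraries and 6.18-fold below in replicate 3. By number, replicate 3 had 6.63 peaks per 100 kb of *Col15a1*, 2.62 of *Col18a1* and 0.721 of *Col4a4*, against 18.3 of *Col4a1* and 13.2 of *Col4a2*.

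Set among the 4945 long gene bodies, *Col15a1* was near the middle, at percentile 48.8 in replicate 2 and 62.6 in replicate 3. *Col18a1* was at 43.3 and *Col4a4* at 28.9 in replicate 3. *Col4a3*, *Col4a5* and *Col4a6* were tied with every other empty gene, at 10.8 in replicate 3. For bases covered in both libraries, 5 of the 6 genes were at 0, as were 35.2% of long genes, and stood at percentile 17.6 by their tie. *Col4a1* and *Col4a2* stood at 92.4 and 92.2. The 6 genes thus ranged from empty to average, while the comparison pair was high.

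Neither library had a peak within 1 kb of any of the 6 listed starts of these genes, a position where 44.4% of the 21255 listed starts of protein-coding genes had peaks of both. The nearest peaks to the *Col15a1* start were 55.9 kb away in replicate 2 and 26.95 kb away in replicate 3. For *Col18a1* they were 35.5 and 2.49 kb from the first start and 88.3 and 16.8 kb from the second. *Col4a1* and *Col4a2* share a start region that a replicate 3 peak covered, with a fold enrichment of 6.82, and their nearest replicate 2 peaks were 10.2 and 10.3 kb away. At the starts, then, replicate 2 was empty for both sets of genes.

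The 250 bases upstream of listed starts, from RefSeq on GRCm38.p6, are shown because no peak lay on any of them. Sequences of 5 of the 6 genes matched, and *Col4a3* did not. Capitals mark GGGCGG, the GC box, and CCAAT, read on either strand, so that CCGCCC and ATTGG also count. The first sequence is the 71-base interval between the annotated start of *Col4a3* and the listed start of *Col4a4*, on the minus strand (chr1:82586850-82586920). That interval lies inside the annotated span of *Col4a4*, which overlaps that of *Col4a3*. The others are upstream of *Col4a5* (chrX:141475169-141475418, plus strand), *Col15a1* (chr4:47207762-47208011, plus strand, inside the gene's annotated span) and *Col18a1* at its first (chr10:77166531-77166780, minus strand) and second start (chr10:77113706-77113955, minus strand).
Col4a4-Col4a3 interval: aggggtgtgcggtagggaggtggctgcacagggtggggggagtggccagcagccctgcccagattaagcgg
Col4a5 upstream: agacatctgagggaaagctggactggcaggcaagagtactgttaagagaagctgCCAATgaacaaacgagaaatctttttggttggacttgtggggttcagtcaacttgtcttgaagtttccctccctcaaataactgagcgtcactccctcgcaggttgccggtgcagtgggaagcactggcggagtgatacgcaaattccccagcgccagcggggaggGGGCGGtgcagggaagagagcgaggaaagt
Col15a1 upstream: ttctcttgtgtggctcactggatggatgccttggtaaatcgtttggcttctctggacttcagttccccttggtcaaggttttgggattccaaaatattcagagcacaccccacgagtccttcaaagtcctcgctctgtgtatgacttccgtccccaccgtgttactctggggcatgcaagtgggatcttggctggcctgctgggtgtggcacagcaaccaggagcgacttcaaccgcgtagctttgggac
Col18a1 first start upstream: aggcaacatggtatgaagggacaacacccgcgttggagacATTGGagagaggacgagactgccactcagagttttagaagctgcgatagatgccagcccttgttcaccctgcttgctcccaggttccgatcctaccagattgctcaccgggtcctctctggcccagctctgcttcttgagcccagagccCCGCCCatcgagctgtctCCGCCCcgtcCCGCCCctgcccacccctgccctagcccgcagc
Col18a1 second start upstream: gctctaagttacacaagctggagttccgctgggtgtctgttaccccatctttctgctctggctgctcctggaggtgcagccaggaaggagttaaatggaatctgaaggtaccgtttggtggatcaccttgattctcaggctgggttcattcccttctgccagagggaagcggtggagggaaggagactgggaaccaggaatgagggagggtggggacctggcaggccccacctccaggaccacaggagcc

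The boxes differed between these starts. Upstream of the first start of *Col18a1* lay 3 GC boxes and 1 CCAAT, and upstream of *Col4a5* lay 1 of each. The window of *Col4a6* held 1 GC box, and those of *Col4a4*, *Col15a1* and the second start of *Col18a1* held neither box. Over all 21255 upstream windows of the same length, 42.6% held a GC box and 35.4% the other. The TATA box, searched as TATAAA on either strand, was in 11.6% of all windows and in 0 of these 6. A match is a description of letters and not evidence of a bound factor.

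CpG content was lower upstream of these starts than upstream of *Col4a1* and *Col4a2*. The ratio of observed to expected CpG was 0.430 for *Col4a4*, 0.575 for *Col4a5*, 0.213 for *Col4a6*, 0.446 for *Col15a1*, and 0.520 and 0.149 for the first and second starts of *Col18a1*. It was 0.896 for *Col4a1* and 0.770 for *Col4a2*, and the median over all windows was 0.530. Shared peaks lay within 1 kb of 9.34% of the 8684 starts under 0.4, 42.4% of the 3065 from 0.4 to 0.6 and 77.0% of the 9506 at 0.6 or more. Of the 6 starts, 2 fell in the lowest class, 4 in the middle class and none in the highest, where both comparison genes were. CpG content thus moved with peaks at starts over the genome, and its part in the emptiness of these starts was not tested.

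**Figure D3:**
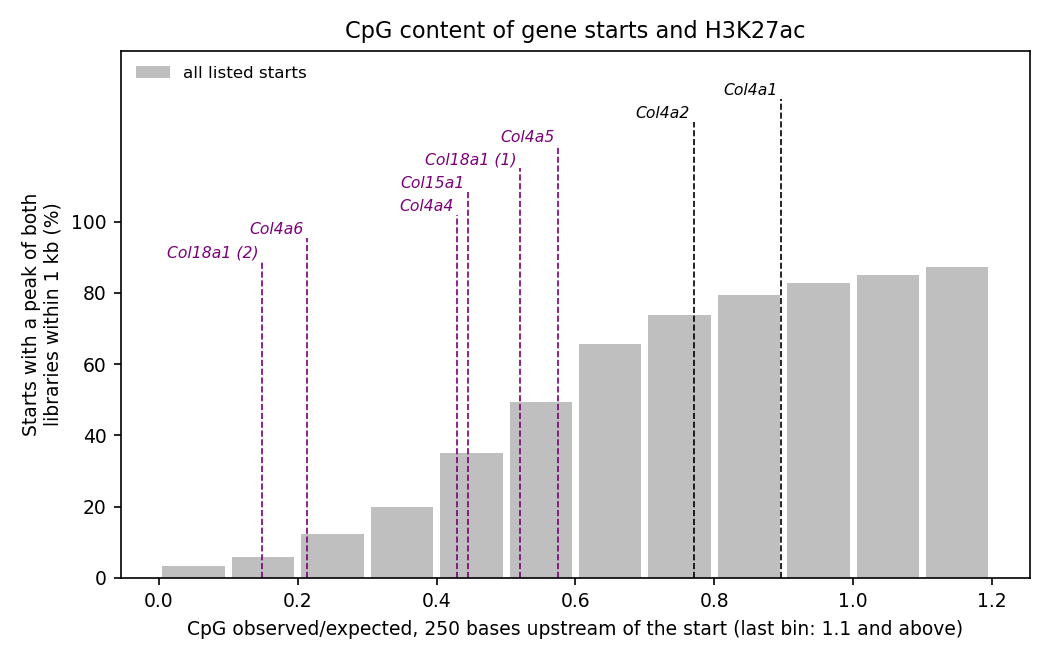
Share of listed starts with a shared peak within 1 kb (bars, %) by the ratio of observed to expected CpG in the 250 bases upstream, over the 21255 listed starts. Dashed lines give the ratio of each start of the 6 genes (purple) and of *Col4a1* and *Col4a2* (black), with only their horizontal position carrying a value; the purple lines lie between 0.149 and 0.575.

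Of 44 collagen genes, which include short ones, 35 had no base covered in both libraries and 20 were empty in replicate 3 as well. Among the 29 with bodies of at least 50 kb, 20 had no base covered in both, where 35.2% of all such genes had none, and 10 were empty in replicate 3, where 21.7% were. *Col15a1*, at 0.259%, stood at rank 4 by bases covered in both libraries, after *Col4a1*, *Col4a2* and *Col13a1*, a transmembrane collagen at 0.292%. The next was *Col28a1* at 0.248%. The collagens closest to *Col15a1* by both libraries' coverage, among 34 of at least 20 kb compared, were *Col7a1*, the anchoring fibril collagen, at 0 and 1.80%, and *Col27a1*, a fibrillar collagen, at 0 and 1.86%. Both lacked the replicate 2 peak that *Col15a1* had. Outside the 6 genes and *Col4a1* and *Col4a2*, 1 of 36 collagens, *Col23a1*, had a shared peak at a gene end and 7 more had one in replicate 3 alone, so that the absence of end peaks from the 6 genes was shared by most collagens.

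**Figure D4:**
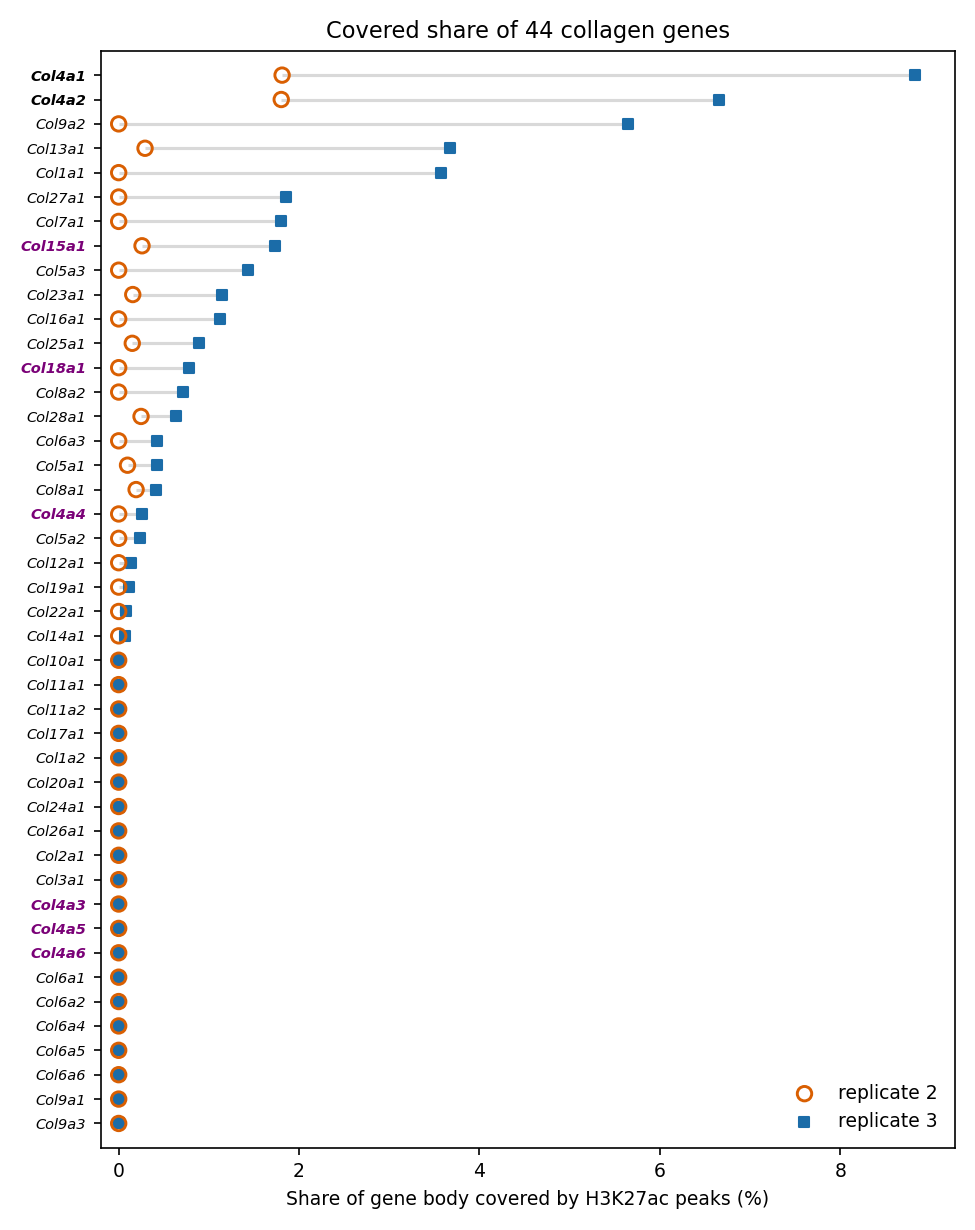
Share of the gene body covered by peaks (%) of replicate 2 (open circles) and replicate 3 (squares) for 44 collagen genes, ordered by replicate 3, with the 6 genes in purple and *Col4a1* and *Col4a2* in bold black. *Col15a1* lies at 0.259 and 1.74%, *Col18a1* at 0 and 0.778%, *Col4a4* at 0 and 0.253%, and *Col4a3*, *Col4a5* and *Col4a6* at 0 in both.

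Among 16 laminins, nidogens and other partners, 6 (37.5%, against 43.4% of all genes) had a shared peak at a gene end, 4 had one in replicate 3 alone and 6 had none. *Hspg2*, which encodes perlecan, was covered over 2.72% of its body in both libraries and 9.07% in replicate 3. *Nid1* and *Nid2*, which encode the nidogens, were at 0.584 and 0.801% in both libraries. *Lamc1*, a laminin chain common to most laminins, was at 1.28%, *Lama4*, the laminin chain of endothelium, at 1.01%, and *Lama1* at 0. *Sparc*, which encodes a collagen-binding matrix protein, was at 3.42%.

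Of 12 genes of collagen folding and export, 7 (58.3%, against 43.4% of all genes) had a shared peak at a gene end, among them *P4hb*, a subunit of prolyl hydroxylase, at 3.98% of its body, *Colgalt1*, a collagen galactosyltransferase, at 3.60%, and *Mia3*, which helps load collagen for export, at 2.83%. Of 6 crosslinking genes, 1 (16.7%) had such a peak, *Loxl3*, a lysyl oxidase gene covered over 1.84% in both libraries. *Pxdn*, which encodes the peroxidase that crosslinks collagen IV, had no peak at an end but was covered over 1.34% of its body.

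Of 8 receptor genes, 3 (37.5%, against 43.4% of all genes) had a shared peak at a gene end. *Itga1* and *Itgb1*, whose products pair as a collagen receptor, were covered over 2.39 and 2.21%, and the collagen-binding kinases *Ddr1* and *Ddr2* were at 0. Of the 10 genes found from a list of 11 that cleave these collagens, 2 (20%) had a shared peak at a gene end, *Ctsl* and *Ctsb*. *Ctsl*, which encodes a cathepsin able to release endostatin from collagen XVIII, was covered over 10.3% of its body in both libraries and *Ctsb* over 17.8%. *Mmp14*, without a shared peak at an end, was covered over 6.34%, and *Mmp2*, a gelatinase, was at 0. Shares of short genes can be large from a single peak, so these levels are not set against those of the long collagen genes.

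**Figure D5:**
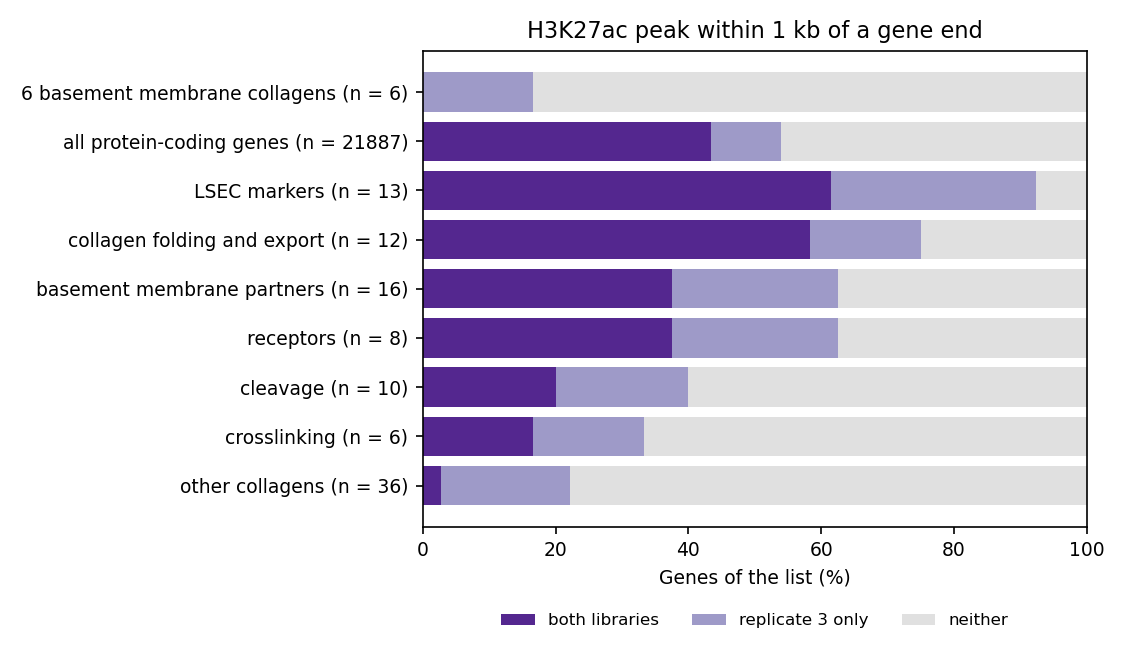
Share of the genes of each list (%) with a shared peak no further than 1 kb from a gene end, and with one in replicate 3 alone. The 6 basement membrane collagens have 0 of 6 and 1 of 6, the LSEC markers 8 of 13 and 4 of 13, and the basement membrane partners 6 of 16 and 4 of 16; over all protein-coding genes the share with a peak of both is 43.4%. The remainder of each bar had neither.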

How the data were processed

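H3K27ac ChIP-seq peaks of 2 LSEC libraries were used, 1 list per library. The authors deposited, for each peak, start, end and summit coordinates, a score, a fold enrichment (a ratio over local background) and −log10 p and q values. The submitters' processing notes name cutadapt, BWA 0.7.17, Picard 1.67, MACS2 2.0.10, bedtools 2.27.1 and mm10, without settings. Whether inputs served as controls, and how duplicates were handled, is not given in the sources used here. The largest q was 0.00907 in replicate 2 and 0.00981 in replicate 3, so a locus without a peak may still hold signal below that limit. Depth is unknown, so no floor is given, and intervals cover counting error only.

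Peaks were placed on RefSeq genes of GRCm38.p6 with Python 3.11.15 and pandas 2.3.3. Libraries shared a region where peaks overlapped by at least 1 bp. Covered share is the share of a gene body under peaks, ranked among 4945 bodies of at least 50 kb, with ties at their middle rank. Distal regions lay over 2.5 kb from the ends of protein-coding genes. Overlaps and covered bases, but not ranks, were tested on simulated peaks. Alternatives changed the q limit, number of peaks, overlap, window, end distance and rank minimum, or left out a library. The members and lists were chosen with earlier results of these data known. Named genes were the 6 collagens, *Col4a1* and *Col4a2*, genes at peaks in the windows, the 2 collagens nearest in coverage, and the lists.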

Additional observations from a re-analysis of the deposited data

How the results depend on the processing

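Of 62 alternative values of 10 results, 47 stayed within set limits and 15 moved, and reversal was not scored. For counts the limit was a set factor of the main value. For percentiles and the pooled ratio it was the standard deviation of the 2 values that each left out a library. Those 2 values are themselves among the alternatives. The 2 shared regions became 1 with reciprocal overlap of at least 50% or with the gene body alone, and 7 with flanks of 50 kb. Leaving out 1 library gave 2 to 15. The count of genes with a shared peak at an end, 0, became 1 (*Col15a1*) at 2.5 kb from an end, with 0 to 1 without a library. The count of distal shared regions, 0, became 1 at a distance of 1 kb, since the *Col15a1* region lies between these limits from the 3′ end, with 0 to 10 without a library. Leaving out a library gave percentiles of 10.8 to 17.4 for *Col4a3*, *Col4a5* and *Col4a6*, 17.4 to 28.9 for *Col4a4*, 48.8 to 62.6 for *Col15a1* and 17.4 to 43.3 for *Col18a1*. The pooled coverage of the 6 genes was 0.0149 of that of *Col4a1* and *Col4a2*, and 0.0149 to 0.0395 without a library. In each case the higher count or ratio came from replicate 3 alone, whose longer list is not limited by replicate 2. No paired analysis was possible because the results come from no test between groups.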

Other observations

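Beyond the 10 kb flank, *Col18a1* had the most peaks of both libraries of the 6 genes. Within 50 kb of its body 4 shared regions lay upstream of the first start, between 35.3 and 47.8 kb away. Their replicate 3 fold enrichments were 9.32, 53.7, 69.3 and 43.99, and those of replicate 2 were 6.23, 25.02, 26.6 and 6.86. The region of 53.7 (chr10:77206279-77207469) lay 0.414 kb from the listed start of *Gm35837*, and that of 69.3 (chr10:77210795-77212023) lay at *Gm40704*, both noncoding genes. Near *Col15a1* the added region was at the start of *Tgfbr1*, a receptor gene of TGF-β signalling, 39.0 kb past the 3′ end, with fold enrichments of 43.4 and 124 in replicates 2 and 3. These 3 genes were named after their values were seen, and no gene was assigned to any of the regions.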
